A study of Rattus norvegicus with 16 samples.

Results

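The CC chemokine genes Ccl2, Ccl3, Ccl4 and Ccl5 were followed across all groups of an RNA sequencing study of cultured primary microglia of the rat, which are macrophages that live in the brain. The genes were chosen by name, with earlier results of these data known, and make up 4 of the 30560 genes listed. They were read as ENSRNOG00000007159 (Ccl2), ENSRNOG00000011205 (Ccl3), ENSRNOG00000011406 (Ccl4) and ENSRNOG00000010906 (Ccl5), all of which passed the filter on low counts. These pairs of identifier and symbol come from the list that named the genes. The deposited files hold identifiers without symbols, and the annotation used here pairs 0 of its 47357 genes with an Ensembl identifier, so the pairs could not be checked, nor could the labelled cell type be checked against marker genes.

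The libraries fell into 4 groups of 4, all from wild type cells at day 12 in vitro: LPS with ApoA-I, LPS, ApoA-I, and Control. Lipopolysaccharide (LPS), a bacterial cell wall molecule that is a standard trigger of inflammatory signalling in macrophages, was given at 100 ng/ml for 20 hours, and apolipoprotein A-I (ApoA-I), which carries cholesterol in high-density lipoprotein particles, at 100 ug/ml in the medium. How long ApoA-I was present is not in the labels, nor is whether each replicate had its own culture or animal; p-values therefore reflect only how far these libraries spread, and that spread may be technical. Library totals lay between 12304916 and 17262383 estimated counts.

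CC chemokines are small secreted proteins named for a pair of adjacent cysteines, and they draw leukocytes along a concentration gradient through G protein-coupled receptors. Ccl2, also called MCP-1, acts through Ccr2 and recruits monocytes. Ccl3 and Ccl4, also called MIP-1 alpha and MIP-1 beta, recruit macrophages and lymphocytes, while Ccl5, also called RANTES, recruits T cells and monocytes. In microglia and other macrophages, LPS induces chemokine genes through Toll-like receptor signalling, NF-kB and, for Ccl5 in particular, interferon regulatory factors. In the RefSeq annotation of the rat, Ccl3 and Ccl4 are neighbouring genes and Ccl2 lies next to Ccl7.

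Levels are given in TPM, the authors' transcript abundances scaled to transcript length and to the same total in every library, which allows genes to be set side by side. In LPS-treated microglia Ccl3 was the most abundant transcript of all genes listed. It ranked first by TPM in each of the 4 libraries with LPS plus ApoA-I and in each of the 4 with LPS, against ranks of 51 to 112 in ApoA-I and 92 to 141 in Control libraries. Ccl2 ranked 14 to 16 with LPS and ApoA-I and 5 to 8 with LPS, and Ccl4 ranked 35 to 44 and 25 to 39 in the same groups. Ccl5 ranked 7612 to 8519 with LPS and ApoA-I and 4192 to 4965 with LPS. The 4 genes together made up 4.51% ± 0.252 of all TPM with LPS and ApoA-I, 6.61% ± 0.198 with LPS, 0.283% ± 0.1 with ApoA-I and 0.194% ± 0.0387 in Control libraries (SD, n = 4 each). Since TPM sums to a fixed total, a share this large takes a little from every other gene.

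The length used for Ccl4 affects where it stands among the genes. The effective length implied by counts over TPM was 2.37 times that of Ccl3 for Ccl4 (range 2.34 to 2.44 over 16 libraries), 1.07 times for Ccl2 (1.06 to 1.07) and 1.97 times for Ccl5 (1.95 to 1.99 over the 8 libraries with LPS). These factors hardly varied between libraries, so they set the distance between genes and not the difference between groups. All 64 estimated counts of the 4 genes were whole numbers within 0.005, whereas 3.24% of all values in the table were not.

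**Figure D1:**
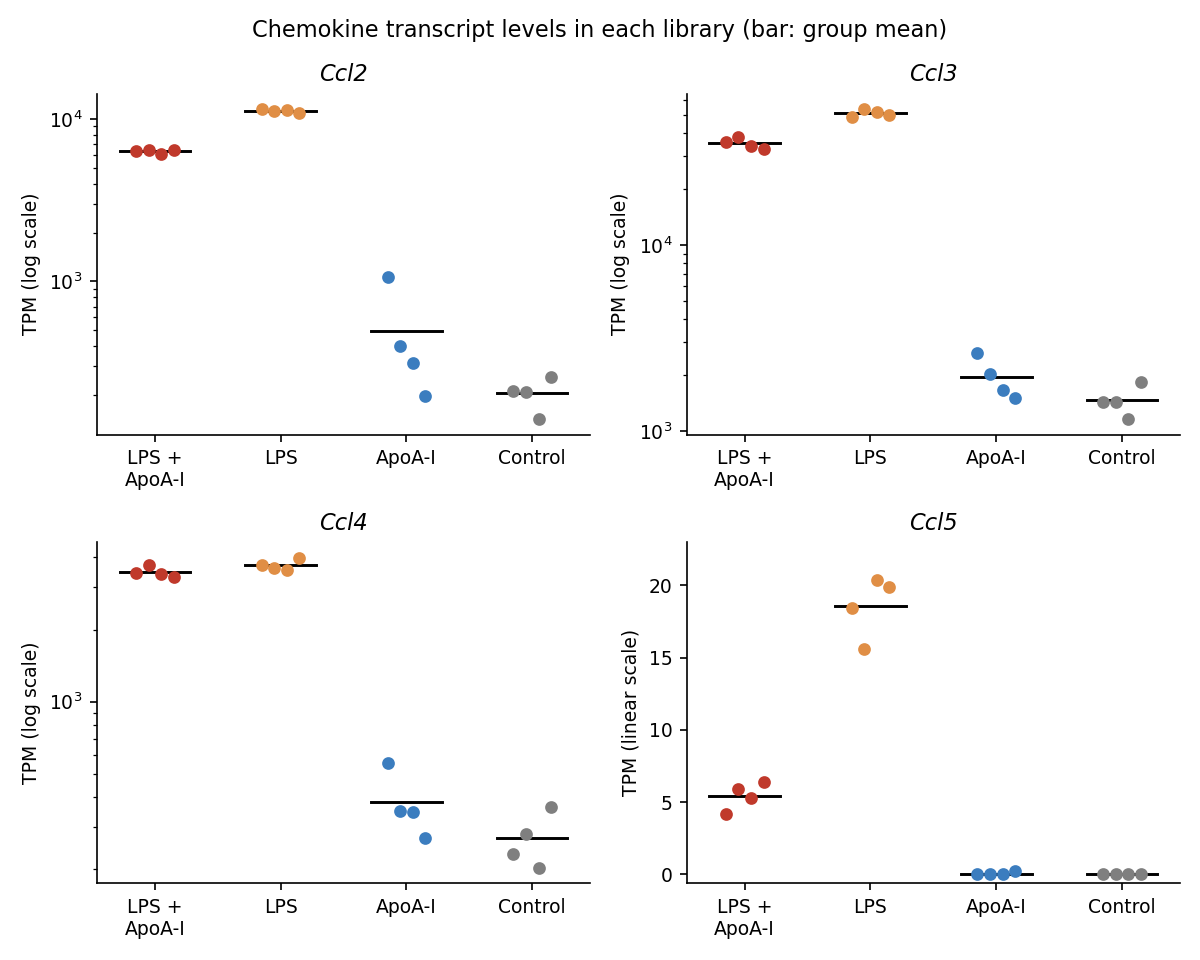
TPM of Ccl2, Ccl3, Ccl4 (log axes) and Ccl5 (linear axis) in each of the 16 libraries, by group, with a bar at the group mean. Libraries with LPS lie far above those without in every panel, and libraries with LPS and ApoA-I lie below LPS libraries without overlap for Ccl2, Ccl3 and Ccl5.

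LPS against Control asked how far LPS alone moves these genes. Ccl2, Ccl3 and Ccl4 rose, where 36.3% of the 11902 tested genes did by the same rule. The rule was an edgeR quasi-likelihood test with a Benjamini-Hochberg adjusted p below 0.05. Ccl5 is not counted, because it could pass the filter on low counts only through libraries with LPS. The log2 fold changes were 6.20 for Ccl2, 5.55 for Ccl3 and 4.21 for Ccl4, against a median of -0.04 over all tested genes. Differences between groups are given as log2 fold changes of counts scaled by TMM (trimmed mean of M values). For Ccl2, Ccl3 and Ccl4 these are larger than the folds of TPM in LPS against Control, and smaller in ApoA-I against Control.

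Ccl2, the monocyte attractant, had 11509, 11124, 11313 and 10813 TPM in LPS libraries, against 212, 208, 142 and 257 TPM in Control libraries. The lowest LPS library was far above the highest Control library. The log2 fold change was 6.20 (SE 0.36, edgeR adjusted p = 5.43e-13), the 96th largest increase of the tested genes. Ccl3 had 49044, 53830, 51981 and 49980 TPM in LPS libraries, against 1440, 1441, 1160 and 1827 TPM in Control libraries. Its transcript was thus already well expressed in untreated cells and reached 5.12% ± 0.213 of all TPM with LPS (SD, n = 4). The log2 fold change was 5.55 (SE 0.16, edgeR adjusted p = 2.09e-18).

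Ccl4, also known as MIP-1 beta, had 3705, 3621, 3539 and 3994 TPM in LPS libraries, against 232, 280, 203 and 363 TPM in Control libraries. The groups did not overlap, and the log2 fold change of 4.21 (SE 0.17, edgeR adjusted p = 7.96e-16) was the smallest of the 4 genes. Ccl5 had 18.4, 15.6, 20.4 and 19.9 TPM in LPS libraries, and no counts in any Control library. It had 663 counts over the 4 LPS libraries and 0 over the 4 Control libraries. As an upper limit for a count of 0, 3 counts over the Control group were taken (0.0462 CPM, the counts scaled to library size). By this limit Ccl5 was at least 307-fold higher with LPS. The limit is a chosen one and not a hard bound. It covers counting error in the Control group only, and the 663 counts were taken without error. The edgeR adjusted p was 1.54e-13, and the fitted log2 fold change against a group at 0 depends on the prior count and is no bound. In bulk RNA a change in the number of cells that express a gene and a change of RNA per cell cannot be told apart, here and in all comparisons that follow.

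The size of the LPS response differed between genes when they were set against each other within a library, where the scaling of libraries cancels. The TPM ratio of Ccl3 to Ccl4 was 13.8 ± 1.14 in LPS and 5.53 ± 0.547 in Control libraries (SD, n = 4 each). The ratio of Ccl2 to Ccl4 was 3.02 ± 0.215 in LPS and 0.767 ± 0.101 in Control libraries, so the order of these genes by TPM was reversed. The ratio of Ccl2 to Ccl3 was 0.219 ± 0.0116 in LPS and 0.139 ± 0.011 in Control libraries. On the log2 scale these ratios differed by 1.33, 1.98 and 0.66, each without overlap of the groups (two-sided exact permutation p = 0.029 each, the lowest value possible with 4 libraries a group; 0.0468 once adjusted by Benjamini-Hochberg for 18 tests, 6 pairs in 3 comparisons). Ratios to Ccl5 are not read in comparisons with untreated cells, because Ccl5 is at 0 there and the ratio is set by the pseudocount. They are still among the 18 tests. Those of Ccl2 and Ccl4 to Ccl5 in LPS against Control also had a permutation p of 0.029, so the adjusted value of 0.0468 depends in part on them.

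Adding ApoA-I to LPS was compared with LPS alone. Ccl5, Ccl2 and Ccl3 fell, and Ccl4 did not pass the test. Thus 3 of 4 genes fell, where 24.9% of all tested genes did. Among the 1332 genes that LPS alone raised by more than 1 log2 unit, a set chosen with the same LPS libraries, 71.1% fell with ApoA-I, so a count of 3 in 4 is near what LPS-raised genes showed as a whole. The median log2 fold change of the 4 genes was -0.80, against -0.62 over those 1332 genes and 0.03 over all tested genes. All 4 are also among the 203 genes that rose with LPS by more than 4 log2 units, of which 84.2% fell, with a median of -1.57. The values of Ccl2, Ccl3 and Ccl4 lay nearer 0 than this median and that of Ccl5 lay beyond it.

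Ccl5, the T cell and monocyte attractant, had 4.18, 5.89, 5.31 and 6.42 TPM in libraries with LPS and ApoA-I, against 18.4, 15.6, 20.4 and 19.9 TPM in LPS libraries. Every library with both agents, at 35 to 64 counts, was below every LPS library, at 126 to 216 counts. The log2 fold change was -1.89 (SE 0.21, edgeR adjusted p = 2.74e-07), and 11.9% of the LPS-raised genes were lowered more.

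Ccl2 had 6377, 6477, 6108 and 6462 TPM in libraries with LPS and ApoA-I, against 11509, 11124, 11313 and 10813 TPM in LPS libraries. Both groups were tight and far apart. The log2 fold change was -0.94 (SE 0.29, edgeR adjusted p = 0.00916). The SE is shared with the other groups, and the ApoA-I libraries without LPS spread widely for this gene; with only the libraries of LPS with ApoA-I and LPS fitted, the change was -0.94 with an adjusted p of 1.15e-12. Ccl3 had 35970, 38105, 33863 and 33016 TPM in libraries with LPS and ApoA-I, against 49044, 53830, 51981 and 49980 TPM in LPS libraries. These groups did not overlap either, and the log2 fold change was -0.66 (SE 0.13, edgeR adjusted p = 0.000255). Ccl3 nonetheless kept the first rank by TPM in all 8 libraries with LPS.

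Ccl4 had 3448, 3724, 3398 and 3313 TPM in libraries with LPS and ApoA-I, against 3705, 3621, 3539 and 3994 TPM in LPS libraries, and these ranges overlapped. The log2 fold change was -0.23 (SE 0.15, edgeR adjusted p = 0.205), and 75.2% of the LPS-raised genes were lowered more. On the TMM scale the Ccl4 values did not overlap, at 2734 to 3134 CPM with LPS and ApoA-I and 3319 to 3438 CPM with LPS; 23.8% of tested genes were lower without overlap on that scale. With only these 2 groups fitted, the same change passed the test (adjusted p = 0.00028), so the test over 16 libraries does not show that Ccl4 was unchanged.

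**Figure D2:**
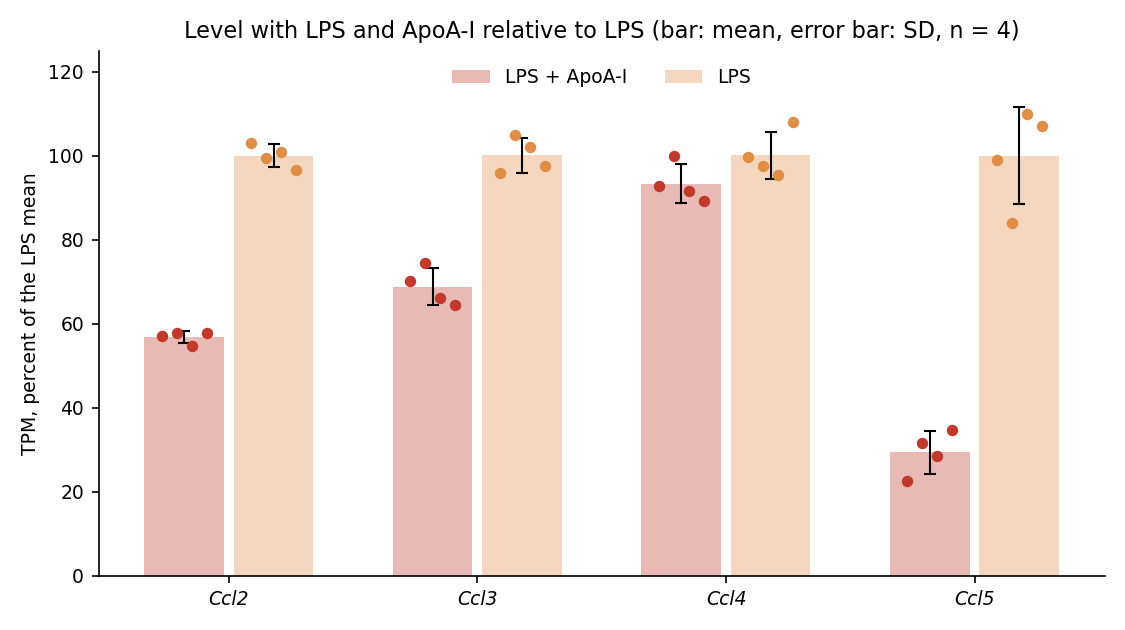
TPM of each gene in libraries with LPS and ApoA-I (left bar of each pair) and with LPS (right bar), as a percentage of the mean of the LPS libraries; points are libraries, bars are means and error bars SDs of 4 libraries. With ApoA-I the mean level was 56.8% of the LPS level for Ccl2, 68.8% for Ccl3, 93.4% for Ccl4 and 29.3% for Ccl5.

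The ratios between the genes differed between these groups. The TPM ratio of Ccl3 to Ccl4 was 10.1 ± 0.227 with LPS and ApoA-I and 13.8 ± 1.14 with LPS, a difference of -0.44 on the log2 scale. The ratio of Ccl2 to Ccl3 was 0.181 ± 0.0108 with LPS and ApoA-I and 0.219 ± 0.0116 with LPS, a difference of -0.28. The ratio of Ccl2 to Ccl5 was 1196 ± 228 with LPS and ApoA-I and 609 ± 78.0 with LPS, a difference of 0.87 (SD, n = 4 each). All 6 pairs of genes differed without overlap between these groups. The two-sided exact permutation p was 0.029 each, the smallest possible. Adjusted over the 18 tests, those set by the pseudocount included, it was 0.0468. By log2 fold change Ccl5 was thus the most negative, then Ccl2, then Ccl3, and nearest 0 was Ccl4, which did not itself pass the test, and each neighbouring pair in that order differed in its ratio.

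**Figure D3:**
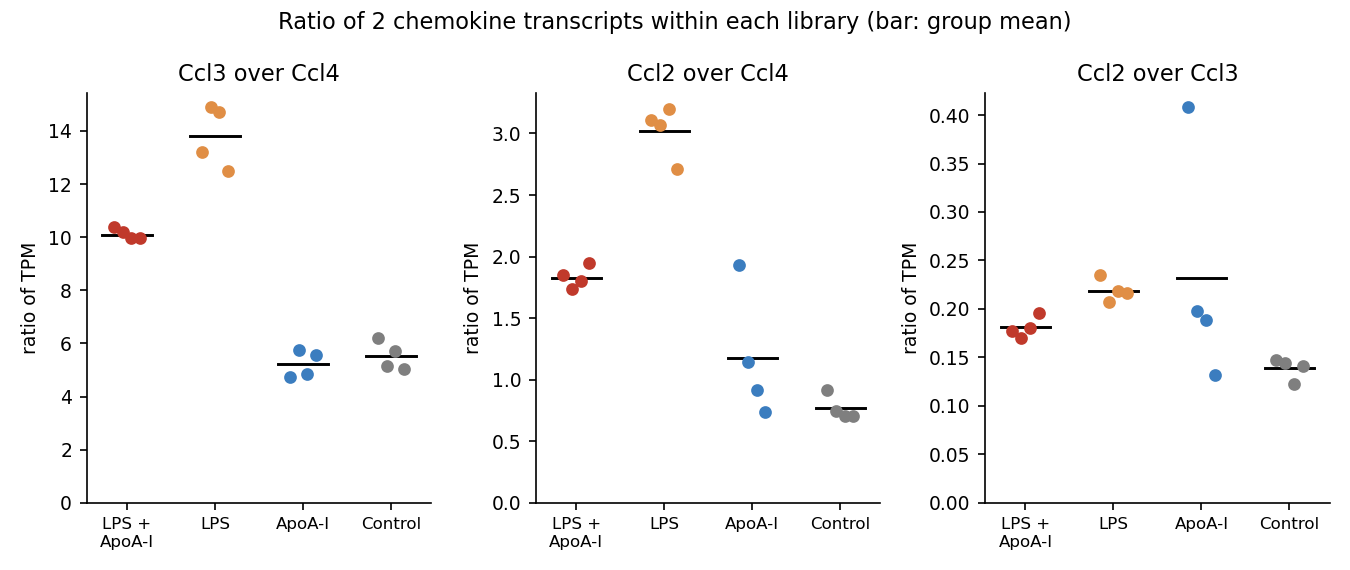
Ratio of the TPM of Ccl3 to Ccl4, Ccl2 to Ccl4 and Ccl2 to Ccl3 within each of the 16 libraries, by group, with a bar at the group mean. In each panel libraries with LPS and ApoA-I lie below LPS libraries and above Control libraries, and 1 ApoA-I library stands high in both panels with Ccl2.

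**Figure D4:**
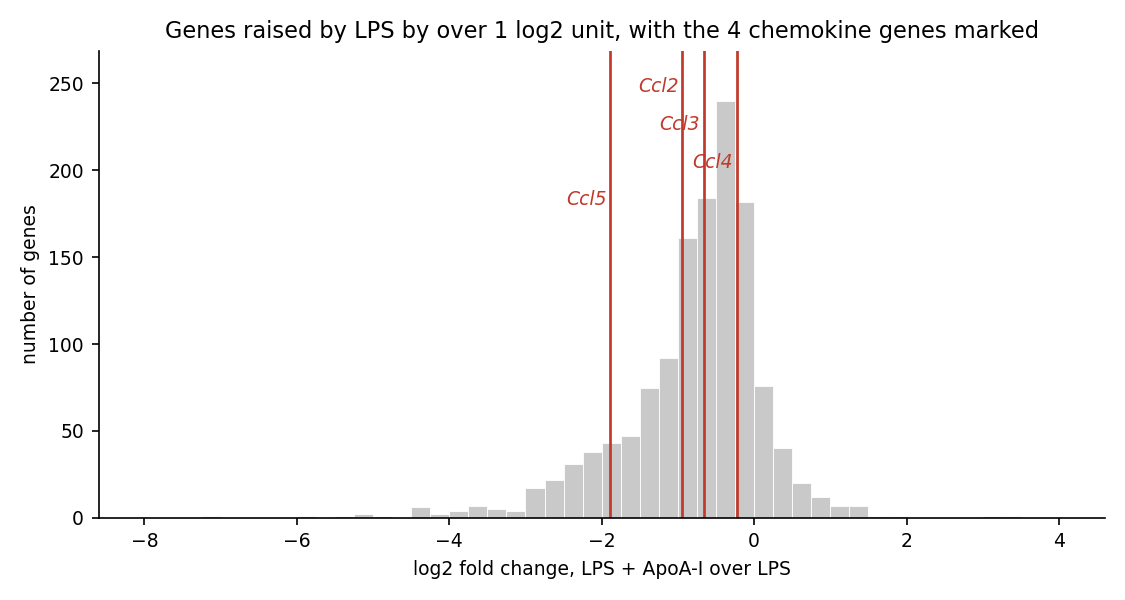
Number of genes (vertical axis) by log2 fold change in LPS with ApoA-I over LPS (horizontal axis, bins of 0.25), for the 1332 genes that rose with LPS by over 1 log2 unit; red lines mark the 4 chemokine genes. Ccl4 lies on the right flank at -0.23, Ccl3 at -0.66 and Ccl2 at -0.94 near the middle, and Ccl5 on the left at -1.89.

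The response to LPS was also measured between cells that all received ApoA-I, in libraries that do not enter LPS against Control. Ccl2, Ccl3 and Ccl4 rose, where 34.5% of tested genes rose. Ccl5 is not counted, because it passed the filter on low counts only through libraries with LPS. The log2 fold changes were 4.07 for Ccl2 (SE 0.33), 4.56 for Ccl3 (SE 0.15) and 3.56 for Ccl4 (SE 0.17), with edgeR adjusted p-values of 2.36e-10, 8.52e-17 and 1.87e-14. Set beside the response without ApoA-I, these were 0.657, 0.821 and 0.846 of its log2 size, against a median of 0.640 (quartiles 0.416 and 0.811) over the 1332 LPS-raised genes and 0.676 (quartiles 0.544 and 0.788) over the 203 strongly raised ones. The value for Ccl2 depends on the library ApoA-I 1, without which the log2 fold change was 4.73. Ccl5 had 212 counts summed over the 4 libraries with both agents and 2 over the 4 with ApoA-I alone, a ratio of 113 per effective library size (exact 95% interval 30.8 to 937, counting error only; edgeR adjusted p = 3.26e-10). Both of those counts are in the library ApoA-I 4; without it the ApoA-I group is at 0 and Ccl5 was at least 56.7-fold higher with both agents, taking 3 counts over the remaining 3 libraries.

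LPS with ApoA-I against Control gave the level left with both agents. For all 4 genes the TPM range with both agents lay above that of Control libraries. Ccl2, Ccl3 and Ccl4 rose, where 34.4% of tested genes rose, and Ccl5 is again left out of this count. The log2 fold changes were 5.26 for Ccl2 (SE 0.35), 4.89 for Ccl3 (SE 0.16) and 3.98 for Ccl4 (SE 0.17), with edgeR adjusted p-values of 7.63e-12, 2.93e-17 and 3.36e-15. Ccl5 was at least 82.5-fold higher, taking 3 counts over the Control group as before (edgeR adjusted p = 9.9e-11).

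Without LPS, ApoA-I was compared with Control. Of the 4 genes, only Ccl2 passed the test in the fit of all 16 libraries, a count of 1 where 2.5% of tested genes rose. The share was 8.41% among the 1332 LPS-raised genes and 9.36% among the 203 strongly raised ones, sets chosen with the same Control libraries. Ccl2 had 1071, 400, 316 and 198 TPM in ApoA-I libraries, against 212, 208, 142 and 257 TPM in Control libraries. The groups overlapped, and the library ApoA-I 1 was far above the others. The log2 fold change was 1.19 (SE 0.30, edgeR adjusted p = 0.029). Without ApoA-I 1 it was 0.52 with an adjusted p of 0.153, and the mean of the other 3 ApoA-I libraries was 305 ± 101 TPM (SD), against 205 ± 47.3 TPM in the 4 Control libraries (SD). The call was also lost without Control 1, Control 2 or Control 3 (adjusted p of 0.066, 0.0645 and 0.108), with only the ApoA-I and Control libraries fitted (0.137) and on log2(TPM + 1) with limma (0.0985).

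Ccl3 had 2622, 2016, 1669 and 1501 TPM in ApoA-I libraries, against 1440, 1441, 1160 and 1827 TPM in Control libraries. Ccl4 had 556, 351, 345 and 270 TPM in ApoA-I libraries, against 232, 280, 203 and 363 TPM in Control libraries. Both genes overlapped between groups and did not pass the test, with log2 fold changes of 0.33 for Ccl3 (SE 0.13, edgeR adjusted p = 0.169) and 0.42 for Ccl4 (SE 0.15, adjusted p = 0.127). Without Control 4 they passed it, at 0.46 (adjusted p = 0.0277) and 0.61 (0.00615), and without ApoA-I 4 at 0.44 (0.0434) and 0.55 (0.0253). Ccl5 had 2 counts in the library ApoA-I 4 and none in the other ApoA-I or in the Control libraries, so no difference was detectable at this depth.

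Among libraries without LPS, the extremes were the same for Ccl2, Ccl3 and Ccl4. ApoA-I 1 was the highest and ApoA-I 4 the lowest ApoA-I library for Ccl2, Ccl3 and Ccl4 alike, and Control 4 the highest and Control 3 the lowest Control library. Other genes that LPS raised by more than 4 log2 units were counted by the library in which they were highest, with no test. Of the 173 that varied among ApoA-I libraries, 38.2% were highest in ApoA-I 1 and 11.6% in ApoA-I 4, and of the 168 that varied among Control libraries, 38.7% were highest in Control 4 and 14.9% in Control 3. Over all tested genes these shares were 28.8%, 23.5%, 28.9% and 24.3%. The part of this variation in the difference between ApoA-I and Control was not tested. With both agents, replicate 2 was likewise the highest library for Ccl2, Ccl3 and Ccl4. Of 199 other strongly raised genes 38.7% were highest there, against 29.0% of all tested genes. Libraries in which none of the 4 genes was highest could also hold a raised share. It was 34.7% against 24.4% for replicate 1 with both agents, and 33.5% against 24.9% for ApoA-I 2. The lowest library with both agents differed between the genes, as did both extremes among LPS libraries. LPS 1, the highest LPS library for Ccl2 and Ccl4, held 19.6% of the strongly raised genes, against 24.3% of all tested genes. LPS 2, the highest for Ccl3, held 29.1% against 24.6%.

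The interaction compared what ApoA-I did with LPS to what it did without. Its values are the ApoA-I effect with LPS minus the ApoA-I effect without it. Ccl2, Ccl3 and Ccl4 were negative and passed the test, where 20.2% of tested genes had a negative call. A negative value was common among LPS-raised genes, since keeping less than the full LPS response with ApoA-I gives a negative interaction. Over the 1332 of them, a set chosen with the same LPS and Control libraries, the upper quartile of the share kept was 0.811. How many of those genes passed the interaction test was not counted. The interaction was -2.13 log2 units for Ccl2 (SE 0.42, edgeR adjusted p = 0.000298), -0.99 for Ccl3 (SE 0.19, adjusted p = 0.000217) and -0.65 for Ccl4 (SE 0.21, adjusted p = 0.0188). Without ApoA-I 1 these were -1.47 (adjusted p = 3.43e-05), -0.84 (0.000348) and -0.44 (0.051). Ccl5, at or near 0 in both groups without LPS, is not counted with them: its call (adjusted p = 0.0493) rests on 2 counts in 1 library, and it was lost in 13 of the 16 fits that left out 1 library; without ApoA-I 4 all libraries lacking LPS are at 0.

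Ordered by level, Ccl2, Ccl3 and Ccl5 were highest with LPS, next with LPS and ApoA-I, and lowest without LPS, with no overlap between these steps. For Ccl4 the groups LPS and LPS with ApoA-I were neighbours whose TPM ranges overlapped. ApoA-I and Control libraries overlapped for all 4 genes.

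Many genes were highly correlated with each of these 4 over the 16 libraries. Such a correlation can come from the LPS difference alone, so it does not show that those genes also fell with ApoA-I. Pearson's r of log2 CPM exceeded 0.95 with 853 of 11898 other tested genes for Ccl2, 997 for Ccl3, 897 for Ccl4 and 959 for Ccl5, as a description of libraries that fall mainly into those with and without LPS. The gene most like all 4, by mean r, was ENSRNOG00000014297, with a mean r of 0.992. It had 296 ± 21.5 TPM with LPS and ApoA-I, 520 ± 50.7 with LPS, 17.5 ± 5.76 with ApoA-I and 11.0 ± 1.78 in Control libraries (SD, n = 4 each). The next was ENSRNOG00000010543, also at 0.992, with 180 ± 3.02, 202 ± 7.36, 96.8 ± 11.0 and 84.5 ± 5.61 TPM in the same order of groups. Its log2 fold change in LPS against Control was 1.69, smaller than that of any of the 4 genes. With log2(TPM + 1) in place of log2 CPM it ranked 9, whereas ENSRNOG00000014297 kept rank 1.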

How the data were processed

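RNA of 16 libraries was sequenced. The authors deposited estimated counts per gene and TPM values per gene. Software named in the submitters' processing notes is RSEM 1.3.1, STAR 2.7.10b and cutadapt 1.8.1; the build named there is mm10, of the mouse, although every identifier is an Ensembl rat one. The sources used here do not name the annotation, and a mismatch would alter counts of single genes.

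Estimated counts were rounded. Genes were kept by filterByExpr (minimum count 10), and edgeR 4.0.16 (R 4.3.3) fitted the 4 groups over all 16 libraries with TMM scaling; its quasi-likelihood p-values got a Benjamini-Hochberg adjustment over 11902 genes, with 0.05 as the threshold. An SE is the size of the log2 fold change divided by the root of F. Within-library ratios used log2(TPM + 0.5) and two-sided exact permutation tests (SciPy 1.17.1) over 70 arrangements. The edgeR test was checked on simulated data for LPS against Control only. The permutation tests were not checked in this way. Alternatives were DESeq2 1.42.0, limma 3.58.1 on log2(TPM + 1) or log2(TPM + 0.1), other scalings, no filter, only the 2 groups compared, replicate number as a block, and each library left out.

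The genes were chosen with earlier results of these data known. All 4 were named whatever their values, and the 2 genes most alike by mean r. Planned lists of other CC chemokines, receptors and cell type markers could not be applied, because identifiers could not be looked up; 0 of the 4 genes had a promoter sequence in the RefSeq table (GRCr8).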

Additional observations from a re-analysis of the deposited data

Results flagged for a closer look

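By edgeR's interaction test, the ApoA-I effect on Ccl2, Ccl3 and Ccl4 was lower in LPS-treated than in untreated cells, where 20.2% of tested genes had such a negative call. Most of the 1332 LPS-raised genes also had a negative value, as their share of the LPS response kept shows (upper quartile 0.811). The interaction was -2.13 log2 units for Ccl2, -0.99 for Ccl3, -0.65 for Ccl4 and -4.17 for Ccl5 (adjusted p of 0.000298, 0.000217, 0.0188 and 0.0493). The fitted value for Ccl5 depends on the prior count and on the 2 counts of replicate 4 of ApoA-I, and is no measure of a difference for this gene. For Ccl2 the spread of the ApoA-I libraries, 198 to 1071 TPM, enters the value; its range over the fits that left out 1 library was -2.39 to -1.47. The library ApoA-I 4 had 0.138 CPM of Ccl5, on 2 counts, where the other 3 ApoA-I libraries had 0. It was the only one to pass the 95% limit of Dixon's gap test for 4 values. With 3 libraries at 0, any count in the remaining library passes, so this outcome was fixed by the zeros and carries no information. At such a limit some groups also pass by chance. The next was Ccl2 in the ApoA-I libraries, with 297 CPM in ApoA-I 1 and a gap of 0.719 of the range.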

How the results depend on the processing

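The responses to LPS, with and without ApoA-I, and the decreases of Ccl2, Ccl3 and Ccl5 with ApoA-I in LPS-treated cells kept their direction and their call under every alternative run. With library totals in place of TMM, the median of all tested genes was -0.42 in LPS against Control and 0.18 between both agents and LPS, and in this last comparison the 4 genes had values of -0.79 (Ccl2), -0.51 (Ccl3), -0.08 (Ccl4, adjusted p = 0.671) and -1.74 (Ccl5). The share of called genes that were higher moved with this scaling: to 25.5% from 48.6% in LPS against Control, 83.1% from 58.5% in ApoA-I against Control, 71.8% from 51.4% between both agents and LPS, 26.7% from 49.8% between both agents and ApoA-I, 31.2% from 49.4% between both agents and Control, and 65.1% from 50.7% in the interaction. With TMM scaling, Ccl4 between both agents and LPS passed the test at -0.23 with only the 2 groups fitted. In ApoA-I against Control, all genes called numbered 508, against 806 with DESeq2, 310 and 238 with limma on log2(TPM + 1) and log2(TPM + 0.1), 94 with only the 2 groups fitted, and 186 to 775 with 1 library left out; Ccl2 lost its call at 1.01 with limma (either pseudocount) and at 1.18 with only the 2 groups fitted (0.52 to 1.45 with 1 library left out), and Ccl4 gained one at 0.42 without a filter on low counts (0.21 to 0.61 with 1 left out; Ccl3 0.18 to 0.46). The interaction of Ccl4 lost its call at -0.58 with limma (-0.84 to -0.44 with 1 left out). That of Ccl5 lost it at -4.17 with library totals or the replicate block and at -4.15 without a filter (-4.51 to -1.89 with 1 left out). The causes were not tested.

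The replicate block changed no other call of these genes. Same-numbered libraries did not deviate together (r from -0.179 to 0.176 over 24 pairs, 2 above 0.1; 5 of 16 libraries were most like one of their own number), so the numbers were not taken to pair them.

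For ratios, leaving out 1 library gives 3 against 4, whose smallest possible p is 0.0571, so every call is lost by construction. Differences then ranged, for LPS against Control, from 0.60 to 0.69 for Ccl2 over Ccl3, 1.94 to 2.07 for Ccl2 over Ccl4, 0.39 to 0.67 for Ccl2 over Ccl5, 1.28 to 1.38 for Ccl3 over Ccl4, -0.21 to 0.01 for Ccl3 over Ccl5 and -1.55 to -1.27 for Ccl4 over Ccl5. Between both agents and LPS alone they ranged from -0.31 to -0.24 for Ccl2 over Ccl3, -0.77 to -0.69 for Ccl2 over Ccl4, 0.76 to 0.95 for Ccl2 over Ccl5, -0.49 to -0.41 for Ccl3 over Ccl4, 1.03 to 1.26 for Ccl3 over Ccl5 and 1.48 to 1.69 for Ccl4 over Ccl5. Ratios to Ccl5 against libraries at 0 moved with the unit and pseudocount by construction: in LPS against Control, Ccl3 over Ccl5 was -0.10 but 0.71 with CPM and -2.39 with a pseudocount of 0.1, and Ccl2 over Ccl5 was 0.55 but -1.74 with 0.1; in ApoA-I against Control, Ccl3 over Ccl5 was 0.25 but -0.06 with 0.1.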
